A study of Mus musculus with 4 samples.

Results

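The hair shaft keratins are the hard keratins that fill the growing hair fibre. They were taken here as every probe set whose only platform gene symbol is one of 10 keratin genes chosen by name. Of these genes, 9 were measured, by 1 probe set each, out of 18194 genes and 45101 probe sets on the array, and the remaining gene was not analysed here. The 9 are Krt35, an early keratin of the hair matrix and lower cuticle, Krt32 of the cuticle, and the cortex keratins Krt31, Krt33a, Krt33b, Krt34, Krt36, Krt81 and Krt86. RNA came from back skin of K5-IKKbeta transgenic mice (2 arrays) and of wild type mice (2 arrays), all males of the strain C57BL6 X DBA2 at 32 days of age. The transgene carries IKKbeta, a kinase that activates NF-kB, behind regulatory elements of keratin K5, which are active in basal keratinocytes of the epidermis and outer root sheath. Each array held RNA pooled from 3 mice of 1 genotype, so the spread within a group is one between pools, and the number of transgenic lines is not given in the sources used here.

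Hair grows from the matrix, a mass of dividing cells in the follicle bulb. Cells leaving the matrix form the cortex and cuticle of the shaft and switch on hair keratins in a fixed order, first Krt35 in the matrix and precortex, then the cortex and cuticle keratins higher up, as mapped mostly in human follicles. Type I keratins (Krt31 to Krt36) pair with type II keratins (Krt81, Krt86) into filaments, which keratin-associated proteins then cross-link. The transcription factors Hoxc13, Lef1 and Foxn1 are known to act on hair keratin genes in the shaft.

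The type I members Krt33a, Krt33b, Krt34, Krt31, Krt32, Krt35 and Krt36 lie in that order on mouse chromosome 11, with 0 other genes between them in the RefSeq gene table of GRCm38.p6, and Krt81 and Krt86 are neighbours on chromosome 15. RefSeq promoter sequences (GRCm38.p6) matched 5 members. These are printed, as the 250 bases before the transcription start, to show where matches to 3 motifs lie in each gene. Capitals mark matches, on either strand, to a LEF/TCF motif (CTTTG followed by AA, AT, TA or TT), to a HOXC13 motif (TTAATN or TTTATN, where N is any base, followed by AA, AG, GA or GG) and to a TATA box (TATAAA).
Krt34, chr11:100041555-100041804, minus strand: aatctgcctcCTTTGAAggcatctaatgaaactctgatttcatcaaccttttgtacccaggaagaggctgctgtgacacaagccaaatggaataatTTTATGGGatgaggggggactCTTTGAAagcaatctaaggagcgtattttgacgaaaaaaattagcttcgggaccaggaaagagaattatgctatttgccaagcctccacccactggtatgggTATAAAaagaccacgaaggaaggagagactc
Krt31, chr11:100050552-100050801, minus strand: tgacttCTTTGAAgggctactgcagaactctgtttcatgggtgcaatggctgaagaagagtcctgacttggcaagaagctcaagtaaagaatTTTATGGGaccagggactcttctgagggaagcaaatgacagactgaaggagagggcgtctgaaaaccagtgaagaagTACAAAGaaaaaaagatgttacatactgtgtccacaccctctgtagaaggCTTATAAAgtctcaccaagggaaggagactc
Krt33b, chr11:100029869-100030118, minus strand: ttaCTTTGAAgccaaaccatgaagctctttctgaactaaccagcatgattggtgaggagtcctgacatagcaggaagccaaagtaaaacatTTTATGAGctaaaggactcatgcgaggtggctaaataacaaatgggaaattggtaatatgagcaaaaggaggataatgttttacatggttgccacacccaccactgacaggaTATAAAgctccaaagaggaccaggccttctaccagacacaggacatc
Krt32, chr11:100088270-100088519, minus strand: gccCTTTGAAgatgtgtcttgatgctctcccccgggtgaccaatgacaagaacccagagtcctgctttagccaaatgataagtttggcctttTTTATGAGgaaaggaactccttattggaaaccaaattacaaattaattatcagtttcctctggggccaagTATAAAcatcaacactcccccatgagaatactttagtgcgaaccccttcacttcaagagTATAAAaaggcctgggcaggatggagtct
Krt36, chr11:100105627-100105876, minus strand: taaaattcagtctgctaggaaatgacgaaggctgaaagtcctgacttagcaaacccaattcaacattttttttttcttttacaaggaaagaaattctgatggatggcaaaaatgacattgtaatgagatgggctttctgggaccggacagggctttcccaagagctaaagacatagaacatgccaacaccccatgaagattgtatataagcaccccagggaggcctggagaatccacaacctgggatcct

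Positions count back from the base before the start, which is -1. A LEF/TCF match, CTTTGAA, began at -240 in Krt34, at -244 in Krt31 and at -247 in Krt32 and Krt33b. A HOXC13 match began at -154 in Krt34, at -158 in Krt31 and Krt32 and at -159 in Krt33b. Krt34 had another LEF/TCF match at -133 and Krt31 one on the opposite strand at -81. TATA boxes began between -47 and -29 in these 4 genes, with another at -88 in Krt32. In Krt31 the TATA box lies inside a HOXC13 match on the opposite strand. The Krt36 window held none of the 3 motifs, which says only that these letters are not in it. Among 32851 RefSeq promoter windows of the same length, 14.8% held the LEF/TCF motif, 17.2% the HOXC13 motif and 12.4% the TATA box. A match is a description of sequence and not evidence of binding.

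**Figure D1:**
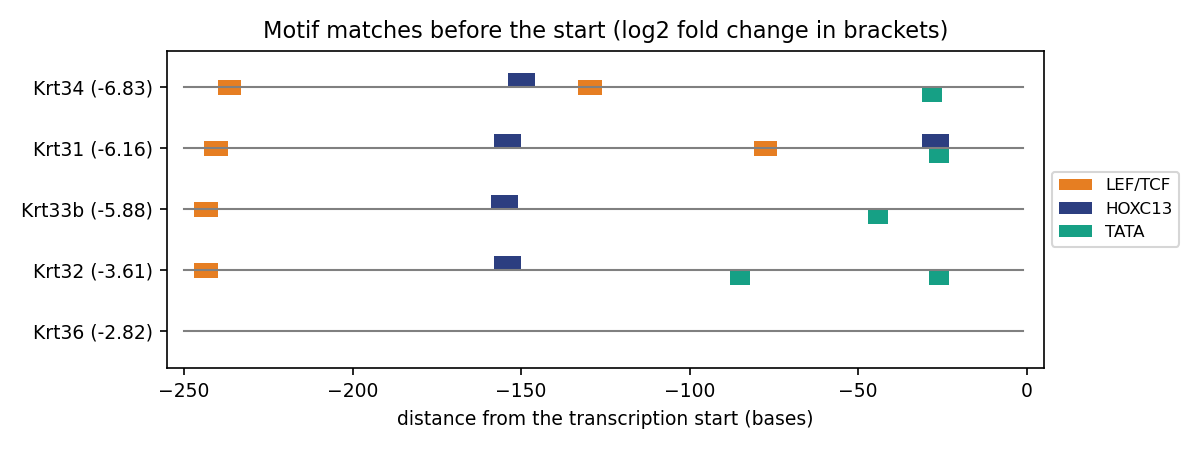
Matches to 3 motifs in the 250 bases before the transcription start of 5 hair shaft keratin genes. The horizontal axis is the distance from the start in bases, and rows are ordered by log2 fold change (K5-IKKbeta minus wild type, in brackets). Krt34, Krt31, Krt33b and Krt32 share a LEF/TCF match near -240 and a HOXC13 match near -154 to -159, and Krt36 has no match.

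Values are log2 RMA expression values, in which a difference of 1 is a doubling. Median values over all probe sets were 6.96 and 6.95 on the K5-IKKbeta arrays and 6.92 and 6.91 on the wild type arrays. Pearson's r across all probe sets was 0.994 between the K5-IKKbeta arrays, 0.996 between the wild type arrays and 0.965 to 0.969 between genotypes, with probe sets not being independent replicates. As a check of the labels, 3 of 5 probe sets of Ikbkb, the mouse gene of IKKbeta, were called higher. Of these, 1454184_a_at measured 8.77 and 8.74 in K5-IKKbeta skin and 6.50 and 6.54 in wild type skin (4.71-fold, limma adjusted p = 0.0001).

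All 9 measured hair shaft keratins fell in K5-IKKbeta skin (limma, adjusted p = 2.2e-06 to 0.0013 over all 45101 probe sets). Of all probe sets, 5.88% were called lower and 10.4% higher. The falls ran from 6.07-fold for Krt35 to 130-fold for Krt86, and the median log2 fold change was -5.94 against 0.00 over all probe sets. All 9 were at least 4-fold lower, as were 0.579% of all probe sets, and 6 of 9 were at least 32-fold lower, as were 0.153%. Neither group's arrays overlapped the other's for any of the 9, where 25.8% of all probe sets lay lower in K5-IKKbeta without overlap. Without wild type 1, 1016 probe sets were called lower in place of 2654, and without wild type 2, 840, and all 9 keratins were called in both (limma adjusted p at most 0.022). In skin RNA, fewer hair-forming cells and less RNA per cell cannot be told apart.

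**Figure D2:**
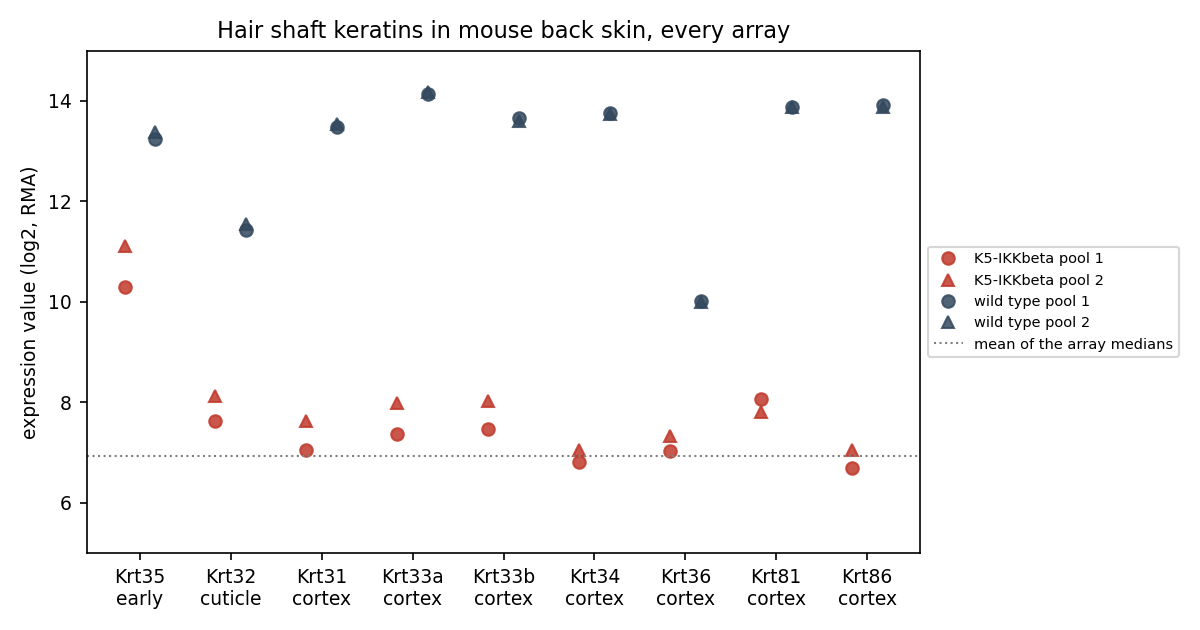
Expression of each hair shaft keratin (vertical axis, log2 RMA value) on every array, K5-IKKbeta pools left of wild type pools, with the mean of the array medians as a dotted line. Wild type points lie nearly on top of each other, and all K5-IKKbeta points are lower, with Krt35 the one gene still above 10 there.

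Krt35, the early keratin of matrix and precortex, had the smallest fitted fall of the 9 genes. Its probe set 1420409_at measured 10.30 and 11.12 in K5-IKKbeta skin and 13.24 and 13.39 in wild type skin (means 10.71 ± 0.57 and 13.31 ± 0.10, SD, n = 2 each). Both K5-IKKbeta pools were low and differed from each other by 0.81, the widest gap between pools among the 9 genes. The log2 fold change was -2.60 with an SE of 0.25, a 6.07-fold fall (limma adjusted p = 0.0013).

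Krt32, a type I keratin of the hair cuticle, lay between Krt35 and most cortex keratins in the size of its fall. Its probe set, 1420728_at, measured 7.62 and 8.13 in K5-IKKbeta skin and 11.43 and 11.54 in wild type skin. The groups were far apart compared with the gaps inside them, and the fall was 12.2-fold (log2 fold change -3.61, SE 0.18, limma adjusted p = 0.00012).

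The type I cortex keratins Krt31, Krt33a, Krt33b and Krt34, which with type II partners make the bulk of the fibre, fell 58.9-fold to 114-fold. Krt34 (1418742_at) measured 6.81 and 7.05 in K5-IKKbeta skin and 13.77 and 13.74 in wild type skin. Its fall of 114-fold (log2 fold change -6.83, SE 0.12, limma adjusted p = 2.2e-06) had the smallest SE of the 9 genes. Both K5-IKKbeta values were close to the median of their arrays. Krt33a (1449387_at) measured 7.37 and 7.99 in K5-IKKbeta skin and 14.13 and 14.18 in wild type skin, an 89.3-fold fall. Krt31 (1421589_at) measured 7.06 and 7.63 in K5-IKKbeta skin and 13.48 and 13.54 in wild type skin, a 71.7-fold fall. Krt33b (1427179_at) measured 7.47 and 8.02 in K5-IKKbeta skin and 13.66 and 13.59 in wild type skin, a 58.9-fold fall. In Krt31, Krt33a and Krt33b alike, the second K5-IKKbeta pool was the higher one. Krt33a fell further than Krt33b by 0.60 on the log2 scale (SE 0.07 from the spread between arrays, a description). Krt33a and Krt33b are closely related neighbours, and how far each probe set binds both transcripts was not tested.

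The type II cortex keratins Krt81 and Krt86, partners of these type I chains, fell 61.2-fold and 130-fold. Krt86 (1427365_at) measured 6.70 and 7.05 in K5-IKKbeta skin and 13.91 and 13.89 in wild type skin (log2 fold change -7.03, SE 0.14, limma adjusted p = 3.4e-06). It ranked 30 among the falls of all 45101 probe sets. Krt81 (1427290_at) measured 8.08 and 7.81 in K5-IKKbeta skin and 13.87 and 13.88 in wild type skin (log2 fold change -5.94, SE 0.13, limma adjusted p = 3.6e-06). Krt81 was the one member whose first K5-IKKbeta pool was the higher. Type II hair keratins share much sequence, so single-gene values of Krt81 and Krt86 are uncertain in the same way.

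Krt36, placed with the cortex keratins here and also made in papillae of the tongue, had the smallest fitted fall of the cortex members. Its probe set 1427751_a_at, whose ending marks sequence shared between transcripts of a gene, measured 7.04 and 7.33 in K5-IKKbeta skin and 10.017 and 10.005 in wild type skin. The fall was 7.08-fold (log2 fold change -2.82, SE 0.13, limma adjusted p = 9.8e-05). Its values in K5-IKKbeta skin, like those of Krt34 and Krt86, were close to the array medians, where a probe set's remaining signal and its background cannot be separated without detection calls. Whether these 3 genes, or other members with low values there such as Krt31, fell further than fitted was therefore not tested. From a wild type mean of 10.01, Krt36 could not fall as far as the other cortex keratins before reaching the array median. That median is not a floor. Krt82, another hair-type keratin, measured 10.67 and 10.66 in wild type skin and 5.63 and 5.93 in K5-IKKbeta skin. Both Krt36 values in K5-IKKbeta skin lay above the 25th percentile. The rank of Krt36 is one of fitted values, and whether its fold is a lower limit was not tested.

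**Figure D3:**
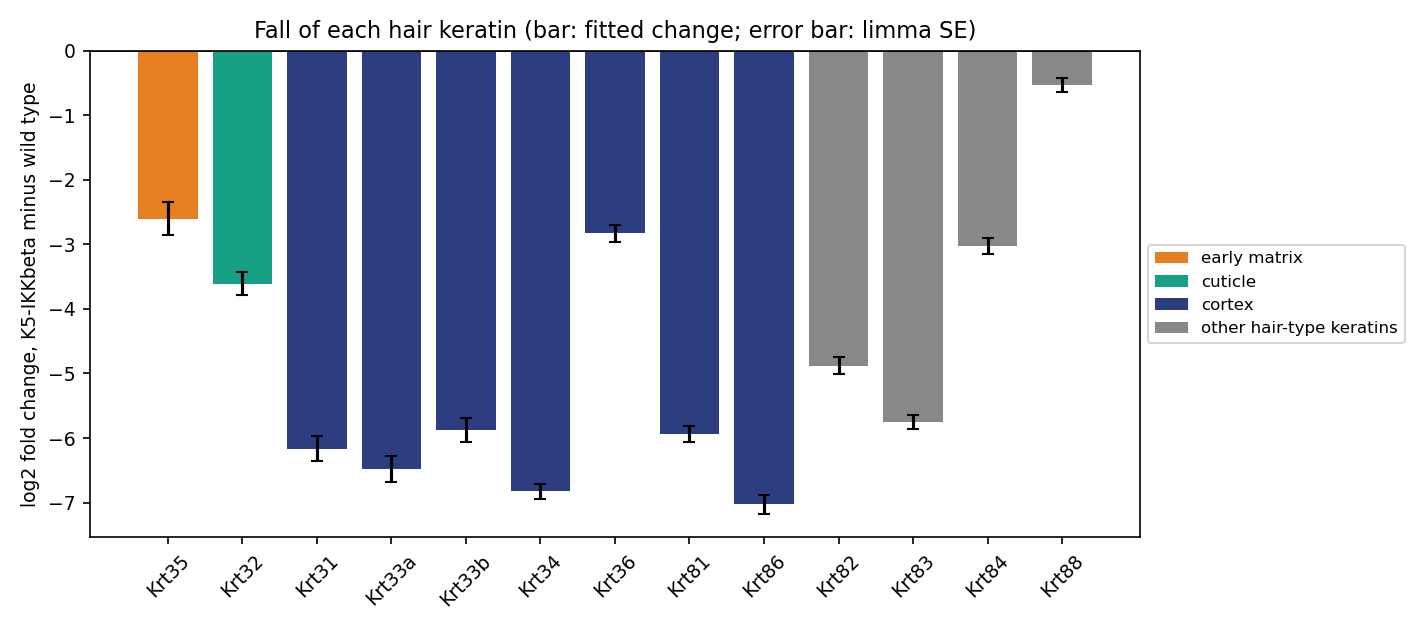
Log2 fold change (K5-IKKbeta minus wild type, vertical axis) of each hair shaft keratin and of 4 other hair-type keratins, with bars coloured by place in the shaft and limma standard errors as error bars (2 arrays a group). Krt35 and Krt36 have the shortest bars among the 9 members, at -2.60 and -2.82, and Krt86 the longest, at -7.03.

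The early keratin was then set against the later ones. With each gene centred on its wild type mean, Krt35 stood at -3.01 and -2.20 in the K5-IKKbeta pools and the mean of the 8 cortex and cuticle keratins at -5.77 and -5.41. Krt35 thus lay above the later keratins by 2.77 and 3.22 in the K5-IKKbeta pools, and by -0.07 and 0.07 in the wild type pools. The mean difference in log2 fold change was 2.99 with a pooled SD between arrays of 0.24, or 7.96-fold. This difference was not tested, since no p is given for a score over chosen members, and an exact permutation test of 2 arrays against 2 cannot go below 0.333. Gene by gene, Krt34, Krt86, Krt33a, Krt31, Krt81 and Krt33b fell further than Krt35 by 3.28 to 4.43 on the log2 scale, with standard errors of 0.11 to 0.54. Krt32 fell further than Krt35 by 1.01 (SE 0.16). Krt36 differed from Krt35 by -0.22 with an SE of 0.27, and the sign differed between the K5-IKKbeta pools (0.04 and -0.48), so the order of these neighbours is not established. The open question on the fall of Krt36 near the array median applies here too. No member was among the brightest 1% of probe sets on a K5-IKKbeta array, against 7 of 9 on both wild type arrays, and whether the brightest values were saturated was not tested.

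The K5-IKKbeta pools also differed from each other. The first pool lay below the second in 8 of 9 hair shaft keratins and in 20599 of all 45101 probe sets. The median difference was -0.50 over the 9, against 0.02 over all probe sets. In wild type skin the first pool was lower in 5 of 9 and in 23595 of all probe sets, with a median difference of -0.01 over the 9. Gaps between the pools in the 9 genes ran from 0.24 to 0.81 in K5-IKKbeta skin and reached 0.15 at most in wild type skin. Over all probe sets the median absolute gap was 0.15 in K5-IKKbeta skin and 0.12 in wild type skin. Every one of the 18 K5-IKKbeta values lay above the 25th percentile of its array and 16 of 18 above its median. Without the first K5-IKKbeta pool the median log2 fold change of the 9 genes was -5.88, and without the second it was -6.16.

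Other keratins of the hair type were taken from a list of 7, of which 4 had a probe set, and these 4 fell. By genes, each taken by its brightest probe set, 6.64% of 18194 were called lower and 14.3% higher. Krt83, a type II cortex keratin in human hair, measured 8.025 and 8.001 in K5-IKKbeta skin and 13.73 and 13.80 in wild type skin, a 53.9-fold fall (limma adjusted p = 2.4e-06). Krt82, the type II keratin of the cuticle, measured 5.63 and 5.93 in K5-IKKbeta skin and 10.67 and 10.66 in wild type skin, a 29.5-fold fall (limma adjusted p = 8.7e-06). Krt82 and Krt32, both of the cuticle, thus had log2 fold changes of -4.88 and -3.61. Krt84 of the tongue fell 8.14-fold. Krt88 fell 1.44-fold (limma adjusted p = 0.022), which did not pass when K5-IKKbeta 2 (adjusted p = 0.059), wild type 1 (0.18) or wild type 2 (0.13) was left out.

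Of 20 listed regulators of the hair shaft 12 fell and 0 rose, with a median log2 fold change of -0.76 against 0.03 over all genes. Without wild type 1, and likewise without wild type 2, 7 of the 20 were lower. Foxn1, the transcription factor mutated in nude mice, measured 6.83 and 7.22 in K5-IKKbeta skin and 9.91 and 9.84 in wild type skin, a 7.22-fold fall (limma adjusted p = 0.00014). Hoxc13, which binds hair keratin promoters, measured 8.22 and 8.31 in K5-IKKbeta skin and 10.18 and 10.26 in wild type skin, a 3.88-fold fall (limma adjusted p = 0.00016). Groups did not overlap in either gene. The homeobox factors Msx2 and Dlx3 fell 5.00-fold and 3.26-fold. Lef1, a partner of beta-catenin in the precortex and picked after its value was seen, had values of 8.77 and 9.45 in K5-IKKbeta skin and 10.15 and 10.55 in wild type skin. Its fall of 2.36-fold (limma adjusted p = 0.017) was lost when wild type 1 (adjusted p = 0.061) or wild type 2 (0.14) was left out. Beta-catenin itself (Ctnnb1), picked after its value was seen, had a log2 fold change of -0.13 (limma adjusted p = 0.54). Wnt10b, a ligand of the follicle, also picked so, had one of -0.05 (limma adjusted p = 0.87).

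Junction and cross-linking proteins of the shaft formed the next list, together with other genes such as Crym, Ly6g6d, S100a3 and Selenbp1. Of 16 measured, 10 fell and 1 rose, with a median log2 fold change of -1.74. Padi1, which converts arginine to citrulline, measured 6.16 and 6.59 in K5-IKKbeta skin and 11.10 and 11.18 in wild type skin, a 27.2-fold fall (limma adjusted p = 2.5e-05). Crym, a thyroid hormone binding protein, fell 23.5-fold, Ly6g6d, a Ly6 family surface protein, 22.0-fold, and S100a3, which binds calcium in cuticle cells, 17.2-fold. The gene that rose, and is named for that reason, was the transglutaminase Tgm5, by 1.94-fold (limma adjusted p = 0.0043), which was not called without wild type 1 (adjusted p = 0.055). The list's 6 measured desmosome genes, given together after their values were seen, split. Dsc2, a desmosomal cadherin, fell 5.26-fold (limma adjusted p = 0.00012), and the plaque protein gene Pkp3 fell 1.67-fold (limma adjusted p = 0.0082), which was lost when wild type 1 (0.076) or wild type 2 (0.087) was left out. By their brightest probe sets, Dsp, Jup, Pkp1 and Dsc3 had log2 fold changes of -0.27, -0.36, -0.11 and -0.10 and did not pass. Another Dsp probe set was called lower (log2 fold change -0.62, limma adjusted p = 0.016). The remaining Dsp probe set was not (log2 fold change -0.24, limma adjusted p = 0.30), so the fall of Dsp depended on the probe set. The plakoglobin gene Jup passed under 4 alternatives (limma adjusted p = 0.032 to 0.047) and the brightest Dsp probe set under 1 (0.034).

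The inner root sheath, the sleeve that moulds the growing shaft, moved in the same direction. Of 10 measured genes 9 fell and 0 rose, with a median log2 fold change of -2.35. Msx2, already counted among the regulators above, is among the 9. The gene that did not pass, named for that reason, was Gata3 (log2 fold change -0.13, limma adjusted p = 0.60). The mean over the list was 10.26 and 10.85 in K5-IKKbeta skin and 13.08 and 13.11 in wild type skin, so here too the first K5-IKKbeta pool was the lower. Krt26 fell 40.9-fold, Krt72 18.8-fold, Krt27 7.16-fold and Tchh, the trichohyalin of the sheath, 6.49-fold. In the list of companion layer and outer root sheath, which encloses these, 3 of 8 fell and 3 rose (median 0.00), and 1 of 8 was lower without wild type 1, as without wild type 2. Krt75 of the companion layer fell 6.80-fold, while the stress keratins Krt16 and Krt6b rose 9.34-fold and 5.46-fold and Krt79 of the upper follicle 1.97-fold. Other stress keratins of the list, named after their values were seen, did not rise. Krt6a fell 1.72-fold (limma adjusted p = 0.017), and was not called when wild type 1 or wild type 2 was left out. Krt17, also on the regulator list, had a log2 fold change of -0.20 (limma adjusted p = 0.30).

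Of 19 measured genes of dividing cells 0 fell and 1 rose by limma, with a median log2 fold change of 0.16. An unadjusted limma p under 0.05 was found for 3 of the 19 and for 6281 of all 18194 genes. The gene that rose was Mcm6, of the replicative helicase, by 1.53-fold (limma adjusted p = 0.022), and it did not pass when K5-IKKbeta 2, wild type 1 or wild type 2 was left out (adjusted p = 0.058 to 0.17). Mki67, a marker of dividing cells, was picked after its value was seen. It measured 11.21 and 11.47 in K5-IKKbeta skin and 11.05 and 11.30 in wild type skin, and the groups overlapped. Dividing cells of the matrix cannot be told apart from those of epidermis and outer root sheath in these values. The list mean was 9.66 and 10.02 in K5-IKKbeta skin and 9.54 and 9.75 in wild type skin.

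Markers of other skin cell types moved alongside, and their part in the fall of the hair keratins was not tested. In interfollicular epidermis 7 of 11 rose and 3 fell, with list means of 12.61 and 12.42 in K5-IKKbeta skin and 11.85 and 11.97 in wild type skin. The 4 genes of largest change split by direction. Krt2 of the upper layers measured 9.49 and 9.97 in K5-IKKbeta skin and 4.35 and 5.26 in wild type skin, below the 25th percentile on both wild type arrays, and was at least 20.9-fold higher when set against that percentile. Krt1, also of the suprabasal layers, rose 3.17-fold. Ivl, the envelope protein involucrin, fell 3.35-fold, and Dsc1, a cadherin of the upper layers, fell 2.20-fold. Without wild type 1, and likewise without wild type 2, 2 of the 11 epidermal genes were higher. Of the melanocyte genes 9 of 11 fell and 0 rose, with list means of 9.16 and 9.26 in K5-IKKbeta skin and 10.25 and 10.33 in wild type skin. Fewer melanocyte genes were called without wild type 1, as without wild type 2. The pigment genes Gpr143, Oca2, Mlana and Tyr fell 3.64-fold, 3.42-fold, 3.21-fold and 3.05-fold. Bulge and germ stem cell genes were higher in 6 of 11 and lower in 0, with means of 10.61 and 10.65 in K5-IKKbeta skin and 9.85 and 9.96 in wild type skin. Fewer of these stem cell genes were called without wild type 1, as without wild type 2. Nfatc1, a factor of quiescent bulge cells, rose 3.20-fold, Npnt 2.72-fold, Lgr6 2.38-fold and Postn 2.07-fold. Dermal papilla genes were higher in 3 of 12 and lower in 0, or in 1 without K5-IKKbeta 1, with means of 7.61 and 7.84 in K5-IKKbeta skin and 7.18 and 7.50 in wild type skin. Those higher were Sox18 (3.38-fold), Sox2, which lay below the 25th percentile on both wild type arrays, and Vcan (2.01-fold), which was not called without wild type 1 or without wild type 2. Sox2 measured 5.18 and 5.55 in K5-IKKbeta skin, the first also below the 25th percentile of its array. Set against the wild type percentile, it was at least 1.02-fold higher. No gene of these lists lay below the 25th percentile on all 4 arrays.

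Outside the follicle epithelium, leukocyte genes were higher in 11 of 16 and lower in 0, with list means of 9.12 and 9.02 in K5-IKKbeta skin and 8.08 and 8.01 in wild type skin. H2-Aa and Cd74 of antigen presentation rose 4.77-fold and 4.14-fold, the pan-leukocyte Ptprc 3.89-fold and Cd207 of Langerhans cells 3.45-fold. Muscle genes were higher in 9 of 10, and in 4 without wild type 1 and 5 without wild type 2, with means of 13.01 and 12.80 in K5-IKKbeta skin and 11.98 and 11.92 in wild type skin. The sarcomere genes Actn3, Tnnt3, Mylpf and Myh2 were 2.41-fold, 2.24-fold, 2.15-fold and 2.08-fold higher, with Actn3 lost without wild type 2 and Myh2 without wild type 1. Fibroblast genes were higher in 4 of 7, and in 1 without wild type 1 or without wild type 2, with means of 13.06 and 13.30 in K5-IKKbeta skin and 12.60 and 12.47 in wild type skin. Pdgfra rose 2.47-fold, and the matrix genes Lum, Dpt and Dcn, 2.13-fold, 1.64-fold and 1.62-fold higher, were lost without wild type 1, as without wild type 2. These 3 lists kept the groups apart in their means. Endothelial genes were higher in 4 of 7, and in 2 without wild type 2, with means of 8.13 and 8.11 in K5-IKKbeta skin and 7.51 and 7.49 in wild type skin. Vwf and Pecam1 rose 2.12-fold and 2.01-fold, while Emcn (1.79-fold) was lost without wild type 2 and Cldn5 (1.47-fold) without wild type 1, as without wild type 2. Sebaceous gland genes were higher in 4 of 6 and lower in 1 (Fads6, named after its value was seen), which was not called without wild type 1 or without wild type 2, with means of 10.49 and 10.48 in K5-IKKbeta skin and 9.42 and 9.49 in wild type skin. The lipid genes Scd3, Pparg, Scd1 and Elovl3 rose 6.97-fold, 3.60-fold, 2.32-fold and 1.95-fold. Adipocyte genes were higher in 2 of 5, in 0 without wild type 2 and in 1 without any other array, and lower in 1 without K5-IKKbeta 2, with means of 10.06 and 10.37 in K5-IKKbeta skin and 10.13 and 9.79 in wild type skin. The higher genes were Cidec (1.72-fold) and Adipoq (1.61-fold). The adipocyte means overlapped between genotypes. The share of these tissues in the RNA was not measured.

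**Figure D4:**
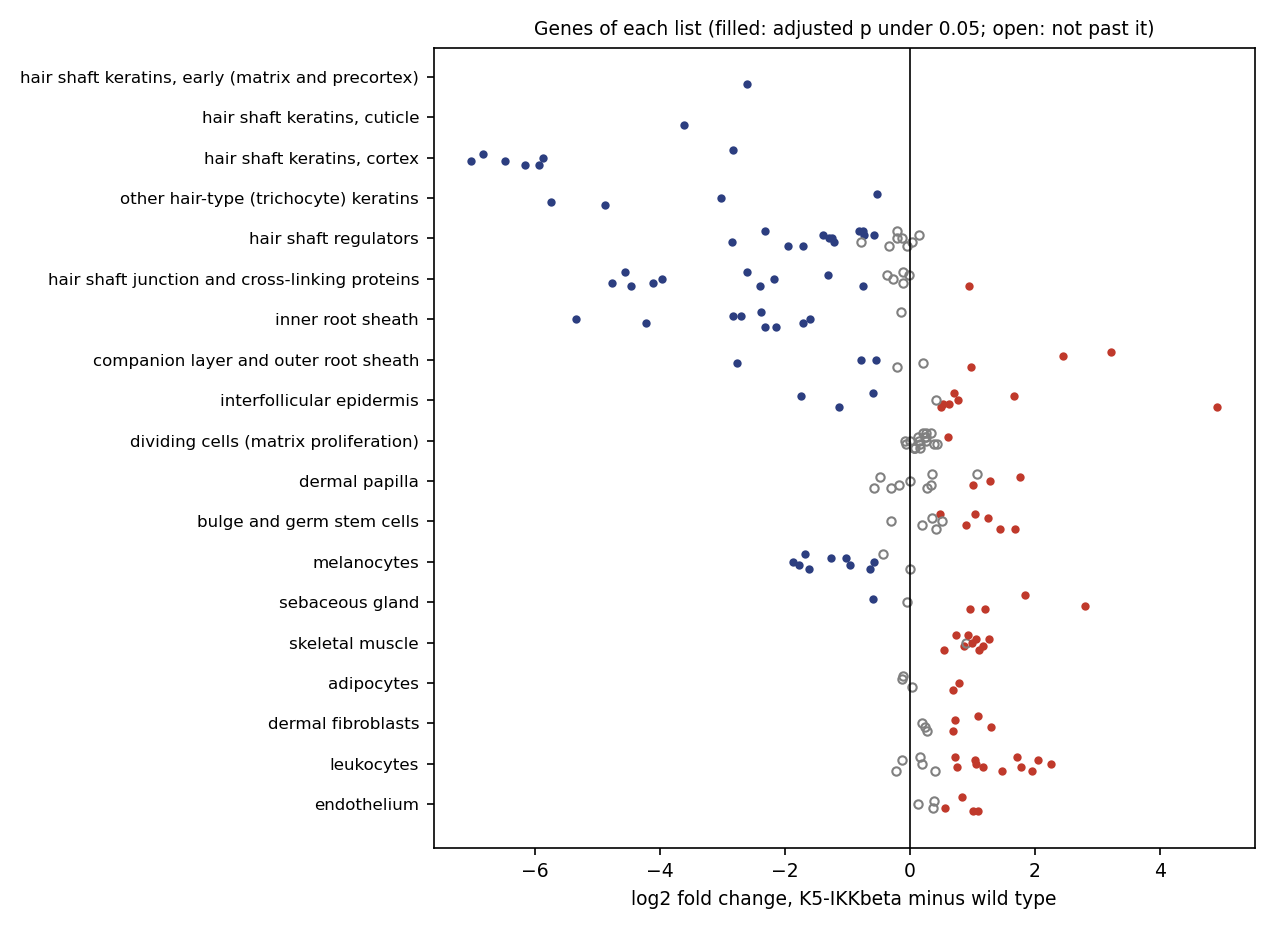
Log2 fold change (K5-IKKbeta minus wild type, horizontal axis) of each measured gene of the hair shaft keratins and of 16 other lists, 1 point a gene. Blue and red points passed the threshold as lower and higher, and open points did not pass. The cortex keratins reach -7.03, the inner root sheath -5.35, and the genes of dividing cells lie between -0.08 and 0.62.

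The genes outside the members with the most similar pattern were found by Euclidean distance between profiles over the 4 arrays, each profile centred on its own mean, from the median profile of the 9 keratins. The nearest were Krtap5-2 (distance 0.12), Sptssb (0.13), Krtap3-1 (0.20), Krtap8-1 (0.28), Krtap4-6 (0.33), Gprc5d (0.36), Krtap26-1 (0.37) and Krtap10-4 (0.38). Of these 8, Krtap genes encode keratin-associated proteins, Sptssb a small subunit of serine palmitoyltransferase and Gprc5d an orphan receptor. Sptssb had a log2 fold change of -5.86 and Gprc5d of -5.93. Among the members, Krt33b (0.15) and Krt31 (0.22) lay nearest to the median profile, and Krt36 (3.15) and Krt35 (3.39) farthest. With 4 arrays in 2 groups, this likeness is mainly one in the size of the fall.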

How the data were processed

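Total RNA of mouse back skin was labelled and hybridised to 4 Affymetrix arrays. The deposited table holds RMA values, a name taken from the submitters' processing notes, where no version stands. RMA ends on a log scale, and the deposited range and array medians near 7 are those of log2 values, so they were taken as log2 and not normalized again. The number of arrays limits the precision. Which software and build the authors used is not stated in the sources used here.

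The platform annotation gave 1 symbol to 34958 of 45101 probe sets, several to 932 and none to 9211. Only probe sets with 1 symbol named a gene. K5-IKKbeta and wild type arrays (n = 2 each) were compared in limma 3.58.1 (R 4.3.3) by lmFit with eBayes over all probe sets, unfiltered and two-sided, and Benjamini-Hochberg adjusted p-values were called at 0.05. P-values set each difference against a spread between pools that eBayes moderates across all probe sets (4.46 prior and 2 residual degrees of freedom). The 16 lists beside the members were described by counts and medians, taking the brightest probe set of each gene. From each list up to 4 called genes of largest change were named, and 8 genes for likeness of pattern. Other list genes named were picked after their values were seen, as stated beside them. Alternatives covered filters, scalings, moderation, the tested fold, probe sets and single arrays. The fit was run on data simulated from its own variance model with independent errors. That checks the code and not how well these data meet the model. The members and lists were chosen with earlier results of these data known. Figures were drawn with matplotlib 3.10.9.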

Additional observations from a re-analysis of the deposited data

How the results depend on the processing

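The count of 9 lower hair shaft keratins was the same with filters at the 40th and 60th percentile, another quantile normalization, centring on the array median, a quantile normalization without hair shaft and Krtap probe sets, trend and robust settings, a test against a 1.2-fold change (treat), 1 probe set per gene, gene-wise means over probe sets, and each array left out in turn. Each member has 1 probe set, so taking 1 probe set per gene, or gene-wise means, could not change the member values. The count was 8 of 8 with shared-sequence probe sets left out, which removes Krt36. With no moderation across probe sets, a fit on 2 residual degrees of freedom, it was 0 (adjusted p = 0.095 to 0.19). In that fit 19 of all probe sets passed the adjusted threshold. All 9 had an unadjusted p under 0.05 there, as had 9296 of all 45101 probe sets. The replicate number as a block gave 9. Across probe sets, deviations of same-numbered arrays correlated at 0.25, but 2 pairs cannot show pairing. The median log2 fold change of the 9 was -6.16 to -5.88 with an array left out. The difference between Krt35 and the later keratins was 2.77 to 3.22 with an array left out, 3.28 against cortex genes alone and 3.39 without Krt36. Calls in the other lists numbered 105 genes, 108 with the replicate block and 68 to 105 with an array left out. Lower calls over all probe sets numbered 2654, against 1016 without wild type 1, 840 without wild type 2 and 1233 with treat, and higher calls 4696, against 1648, 1690 and 2379. No detection calls were used, so signal near background could limit the folds of Krt34, Krt36 and Krt86, and those of other members too. Krt31, for one, measured 7.06 in the first K5-IKKbeta pool, against an array median of 6.96.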

Other observations

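Among the genes of the shaft and sheath lists, the widest gaps between the K5-IKKbeta pools were those of Tchh and S100a3, picked after their values were seen. Tchh, which fills the inner root sheath and the medulla, measured 10.56 and 11.77 in K5-IKKbeta skin and 13.79 and 13.94 in wild type skin. S100a3, a calcium-binding protein of the cuticle, measured 8.67 and 9.75 in K5-IKKbeta skin and 13.27 and 13.37 in wild type skin. In both genes the first K5-IKKbeta pool was the lower, as in 8 of 9 hair shaft keratins. Krt72 of the inner root sheath measured 8.46 and 8.43 in the same pools, against 12.67 and 12.68 in wild type skin.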
